A study of Homo sapiens with 36 samples.

Results

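Cytoplasmic RNA of HCT116 cells, a human colorectal cancer line, was compared between day 14 after the start of 5-fluorouracil (D14) and untreated cells taken just before the drug was added (D0). The members were the 3 cytoplasmic libraries labelled D14 and the 3 labelled D0, picked by day and fraction from 36 libraries in all, and every one of the 15891 listed genes was read in them. The D14 cells had received 10 µM 5-fluorouracil in the medium for 48 h and were collected 14 days after its start, and the D0 cells had received none. The steps described for both groups were plating 48 h before day 0 and emetine (a translation blocker) at harvest. Cells were then trypsinised and lysed in hypotonic buffer, and nuclei and mitochondria were pelleted. The D14 cells spent 14 more days in culture than the D0 cells. Libraries came from poly(A)-selected RNA. The series also holds cytoplasm of days 1, 2, 7 and 16 and, for each of the 6 days, a heavy polysome pool, which is RNA from gradient fractions with more than 3 ribosomes per message. HCT116 is 1 established line, no untreated culture of a later day was analysed here, and the labels do not say how the cells were kept after the drug, so drug exposure and time in culture cannot be told apart in any difference given here. Libraries carry a letter, A, B or C, which the labels call a batch and the sample descriptions a replicate. Nothing says that the letters were separate cultures, so p-values measure the spread between these libraries only.

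5-Fluorouracil is converted in cells to nucleotides that block thymidylate synthase, the enzyme that makes thymidylate for DNA, and that are also built into RNA and DNA. Cells under this stress typically raise p53 targets such as the cell cycle inhibitor CDKN1A and leave the cell cycle, with lower transcripts of replication and mitosis genes. DNA damage and unusual nucleic acids in the cytosol can also raise interferon-stimulated genes, a set of antiviral factors that cells raise in response to interferon.

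Values are normalised read counts, as deposited. Whole reads could be recovered from them, and they give 44219479 to 52035636 reads per library at D14 and 46657275 to 51155349 at D0. Mitochondrially encoded transcripts took 6.47% to 9.80% of the reads at D14 and 5.05% to 6.79% at D0, so those ranges overlapped. Of 16 colorectal epithelial markers 11 were listed, with summed values of 383430 to 525560 at D14 and 276460 to 296670 at D0. VIL1, CDH17, LGALS4, CEACAM5 and GPA33 were not among the listed genes. Of 30 markers of other lineages 8 were listed, summing to 1689 to 2473 at D14 and 1368 to 1448 at D0, and PTPRC, CD3E, PECAM1 and COL1A2, which mark leukocytes, T cells, endothelium and fibroblasts, were not among the listed genes. Of the 8 listed, 2 rose in the sense given below and none fell, with a median log2 difference of 0.58. The 2 were ITGAM, a leukocyte marker, and ACTA2 (2.17 and 1.85). The ITGAM call was lost without D14 A, without D0 C and with letter B left out on all days. In bulk RNA, a change in the make-up of the cells and a change of RNA per cell cannot be told apart.

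1 library of the 6 stood apart. D14 B deviated from the mean of its group with an SD of 0.501 on the log2 scale across genes, against 0.304 for D14 A and 0.311 for D14 C, and its deviation followed the GC content of the genes. The log2 difference D14 minus D0 taken within a letter correlated with gene GC content at r = 0.557 in letter B, and at -0.158 in letter A and -0.196 in letter C (Pearson across 15780 genes, which are not independent replicates). In the fifth of genes with the lowest GC content the median difference was 0.23 in letter A, -1.01 in letter B and 0.26 in letter C, and in the fifth with the highest it was -0.17, 0.51 and -0.22. Across all genes the within-letter differences of A and C correlated at r = 0.734, those of A and B at 0.428 and those of B and C at 0.377. AT-rich genes were low and GC-rich genes high in D14 B compared with the other D14 libraries, and counts are given with and without it. Cytoplasmic D16 B, outside these 6 libraries, showed the same trait, with an SD of 0.485 from its group. Its deviation correlated with gene GC content at r = 0.706, against 0.753 for that of D14 B. Deviations of other cytoplasmic libraries were related to GC content too, such as those of D1 B (r = 0.442) and D2 C (-0.466). D0 B, at -0.339, leaned the other way from D14 B, and the letter B difference includes both.

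**Figure D1:**
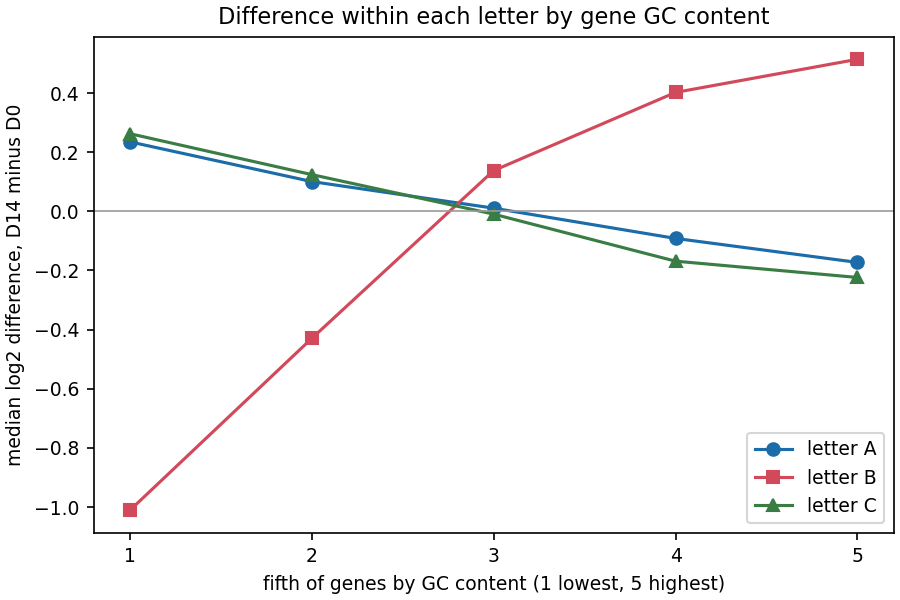
Median log2 difference D14 minus D0 within each letter (y axis) for 5 equal groups of genes ordered by GC content (x axis). Letter B climbs from -1.01 in the lowest to 0.51 in the highest group, while letters A and C decline slightly and stay between -0.22 and 0.26.

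At D14, 2035 of 15889 genes tested differed from D0 (limma on log2(value + 1) over the 18 cytoplasmic libraries, Benjamini-Hochberg adjusted p under 0.05), which is 12.8%. Of these, 1232 rose (7.75% of the genes tested) and 803 fell (5.05%). These shares, and the median of -0.02 over all genes, are the background for every list count against D0 below. At least 2-fold changes numbered 1135, with 937 up and 198 down. The 3 D14 values and the 3 D0 values did not overlap for 2029 of the 2035 genes, against 6186 of all genes tested (38.9%). A lack of overlap thus nearly follows from the call, and adds no support to it where stated for called genes below. Log2 differences below are D14 minus D0 on the log2(value + 1) scale with their SE, p-values are adjusted over all genes tested, and "rose" and "fell" are used only for adjusted p under 0.05. Without D14 B, 961 genes rose and 782 fell, and 1427 of the 2035 genes were called in both. The count was 1286 without D14 A, 1281 without D14 C and 1104, 1161 and 1138 without D0 A, B and C. Scaling to library totals moved the median of all genes from -0.02 to 0.12 and gave 1261 rises and 366 falls, so that 77.5% of calls were higher, against 60.5% with the deposited scaling.

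Interferon-stimulated genes were higher at D14 as a group. The list held 46 genes, of which 33 were tested, and the counts cover only members detected in every library. Of 33 tested, 21 rose, none fell and 12 did not pass, and the median log2 difference was 1.65, against -0.02 over all genes tested. Within letters A, B and C the medians were 1.61, 1.40 and 1.54. Without D14 B 18 rose, and without D0 C 14 rose. IFI27, a small membrane protein induced by type I interferon and encoded on chromosome 14 (94104836 to 94116698, GRCh38), had 822, 991 and 534 normalised counts in D14 A, B and C, against 19.2, 16.7 and 28.8 in D0 A, B and C. Every D14 library lay far above every D0 library, a 34.5-fold rise (log2 difference 5.11 ± 0.42, adjusted p = 3.9e-07). IFI6, an antiviral membrane protein that was also named an apoptosis inhibitor, had 4303, 5434 and 3431 at D14 and 243, 306 and 187 at D0 (log2 difference 4.16 ± 0.31, adjusted p = 1.1e-07). Here letter B was highest and letter C lowest on both days, with no overlap of the days. IFIT2, whose protein binds foreign RNA, had 646, 257 and 609.7 at D14 and 12.4, 32.4 and 34.5 at D0 (log2 difference 4.21 ± 0.60, adjusted p = 0.00017). The D14 B library held the lowest of the D14 values and still exceeded every D0 library. IFIT2 shares 25583 bases of its annotated span with LIPA on the opposite strand, and whether the counting used the strand is not given in the sources used here. IFITM1, which blocks virus entry, had 441, 764 and 356 at D14 and 38.5, 46 and 28.8 at D0 (log2 difference 3.70 ± 0.41, adjusted p = 1.2e-05). The groups did not overlap, and part of the rise is uncertain in origin because IFITM1 and IFITM2 overlap on the same strand and are close copies. Among the 12 that did not pass, ISG15, a ubiquitin-like modifier, had 6285, 7835 and 5275 at D14 and 4371, 3329 and 2837 at D0 (adjusted p = 0.094). Its days did not overlap, yet the difference of 0.88 ± 0.34 missed the threshold.

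The promoters of 5 rising interferon-stimulated genes are shown because each holds the paired half-sites of the interferon response element, searched as GAAANNGAA on either strand with overlapping matches counted. Capitals mark the matches, also where the motif lies on the other strand, the sequences run 5′ to 3′ on the gene's strand, and they lie upstream of the start site in RefSeq's GRCh38.p14 promoter table. IFIT1 and IFIT3 were added to the rule's genes for this comparison after their values were seen, with log2 differences of 2.55 and 3.53.
IFI27, chr14:94110611-94110690, plus strand: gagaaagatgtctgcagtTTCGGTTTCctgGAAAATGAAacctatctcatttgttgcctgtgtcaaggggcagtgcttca
IFI6, chr1:27672236-27672315, minus strand: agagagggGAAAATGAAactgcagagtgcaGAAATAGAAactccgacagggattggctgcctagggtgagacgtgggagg
IFITM1, chr11:313960-314039, plus strand: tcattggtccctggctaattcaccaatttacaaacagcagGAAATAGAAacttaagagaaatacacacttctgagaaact
IFIT3, chr10:89332449-89332528, plus strand: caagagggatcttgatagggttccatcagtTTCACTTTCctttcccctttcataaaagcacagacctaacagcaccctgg
IFIT1, chr10:89392491-89392570, plus strand: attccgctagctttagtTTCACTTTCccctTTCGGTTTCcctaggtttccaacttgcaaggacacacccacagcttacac
Over all 27305 genes of that table, 9.86% hold the motif somewhere in the 300 bases around their start. Only 26 of the 33 interferon-stimulated genes tested have a window there, which is under the 80% needed, so a share over the list is void and is not given. Of the 12 that did not pass 10 have a window, and 8 of these 10 hold the motif too, ISG15 among them. A match is a run of letters, not a measured binding site.

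Genes of the epidermis, hair keratins among them, were higher at D14. The list held 42 genes, of which 22 were tested. No listed gene is at 0 in any library, so the counts cover only members detected on all days. Of 22 tested, 20 rose, none fell, and the median log2 difference was 1.66 (1.40, 1.98 and 1.93 in letters A, B and C). There were 17 rises without D14 B and 14 with letter B left out on all days. KRTAP3-1, a hair keratin-associated protein on chromosome 17 (41008521 to 41019324, GRCh38), had 1871, 3311 and 3346 at D14 and 5.66, 31.4 and 18.2 at D0. It showed the largest rise of the genes named by the rule, 171-fold (log2 difference 7.42 ± 0.44, adjusted p = 5.6e-09), and D0 A held only a few reads. Without D0 A its log2 difference was 6.78, and without D0 B 7.92. LCN2, a secreted iron-siderophore binding protein on chromosome 9 (128149071 to 128153455), had 2215, 3228 and 2687 at D14 and 83.7, 57.5 and 56.6 at D0 (log2 difference 5.35 ± 0.27, adjusted p = 8.7e-10). No D14 library came near a D0 library for LCN2. KLK5, a serine protease of skin shedding, had 775, 1153 and 1106 at D14 and 36.2, 40.8 and 27.8 at D0 (log2 difference 4.81 ± 0.26, adjusted p = 2.1e-09). KRT81, a hair keratin, had 522, 652 and 484 at D14 and 45.3, 20.9 and 28.8 at D0 (log2 difference 4.14 ± 0.32, adjusted p = 2e-07). Both genes were at least several-fold higher in the lowest D14 library than in the highest D0 library. KRT81 has near-identical neighbours, KRT83 and KRT86, and overlaps KRT86, so how reads were split among them is uncertain.

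Other epithelial genes rose as well. KRT7, a simple-epithelium keratin, had 10130.5, 14288 and 11522 at D14 and 1794, 1564 and 2108 at D0 (log2 difference 2.71 ± 0.22, adjusted p = 2.4e-07). KRT7 shares 2887 bases of its annotated span with KRT86 on the same strand. CLDN4, a tight junction protein, had 17859, 27068 and 15965 at D14 and 6182, 5319 and 5581 at D0 (log2 difference 1.80 ± 0.27, adjusted p = 0.00027), with letter B highest at D14. CDH1, the E-cadherin of adherens junctions, had 1848, 2357 and 2240.0 at D14 and 804, 983 and 979.6 at D0 (log2 difference 1.22 ± 0.27, adjusted p = 0.0068). CDH1 lost its call when letter B was left out on all days. Of 29 epithelial junction genes 9 rose and none fell (median 0.53), and again 9 rose and none fell without D14 B. There were 7 rises without D0 A and 7 with letter B left out on all days. VIM, the intermediate filament protein of mesenchymal cells on chromosome 10 (17228259 to 17237593), had 53.6, 52.3 and 34.1 at D14 and 173, 261 and 191 at D0. It was the largest fall named by the rule, 4.41-fold lower (log2 difference -2.14 ± 0.34, adjusted p = 0.0005), with no overlap. Of the other 16 mesenchymal genes tested TGFBI, ACTA2 and FSTL1 rose (3.49, 1.85 and 0.93) and 13 did not pass, while with letter as a block 6 rose. ACTA2 shares 40080 bases with STAMBPL1 and 758 with FAS, both on the opposite strand. The FSTL1 call was lost without D14 A, D14 C, D0 A or D0 B. Under intestinal differentiation only 6 genes were tested, of which AQP3 and KLF4 rose (0.93 and 0.77), and 1 rose without any 1 library other than D14 B. KRT20, a keratin of differentiated colonocytes, had 118, 80.7 and 90.9 at D14 and 37.3, 25.1 and 29.7 at D0 and did not pass (log2 difference 1.62 ± 0.57, adjusted p = 0.068).

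The remaining large rises were of mixed kind. PRR15L, a proline-rich protein, had 309.5, 381 and 256 at D14 and 4.53, 4.18 and 2.88 at D0 (log2 difference 6.02 ± 0.55). CLIC5, a chloride intracellular channel family member, had 101, 139 and 128 at D14 and 3.39, 4.18 and 1.92 at D0 (log2 difference 4.92 ± 0.47). Both were near the lower end of detection before the drug, so their folds rest on few D0 reads. LGALS9, a galectin, had 314, 553 and 408 at D14 and 29.4, 16.7 and 10.6 at D0 (log2 difference 4.49 ± 0.38), and near-identical copies exist. FOXQ1, a forkhead transcription factor, had 274, 577 and 302 at D14 and 9.05, 38.7 and 12.5 at D0 (log2 difference 4.38 ± 0.45), with letter B highest on both days. NRG1, a ligand of the ERBB3 and ERBB4 receptors, had 695, 558 and 973 at D14 and 29.4, 35.5 and 39.3 at D0, a 20.4-fold rise (log2 difference 4.35 ± 0.33). None of these 5 genes had overlapping days, and all 5 kept adjusted p under 0.05 in each alternative run.

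**Figure D2:**
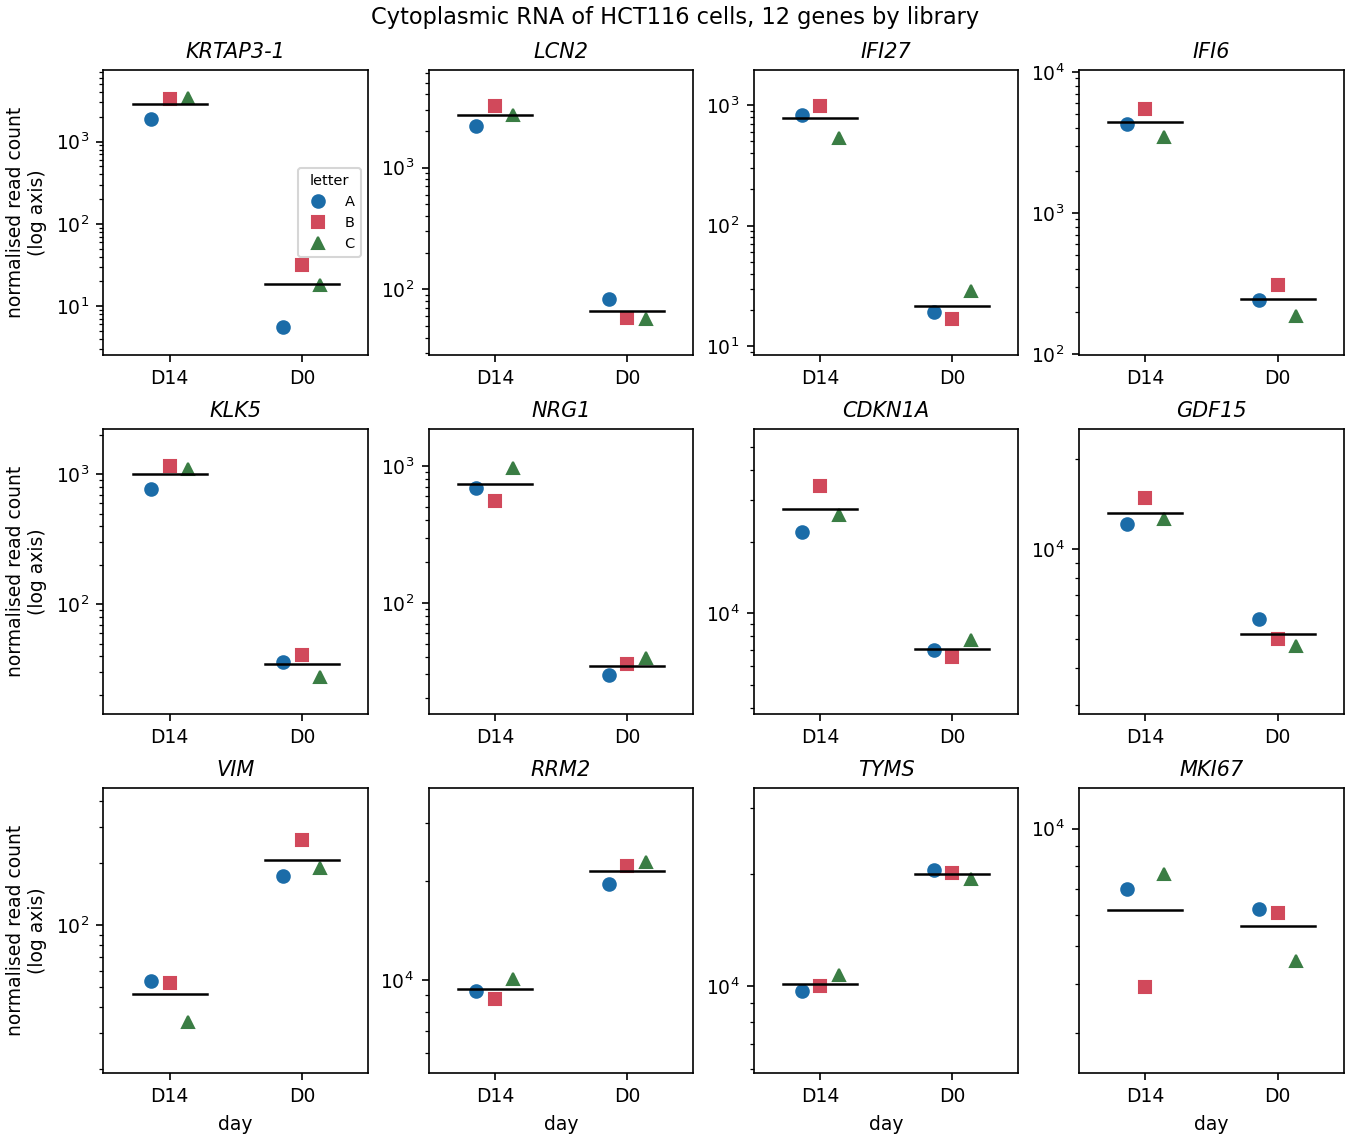
Normalised read counts (log axis) of 12 genes in the 3 cytoplasmic libraries of D14 and the 3 of D0, marked by letter, with the mean as a line. For KRTAP3-1, LCN2, IFI27, IFI6, KLK5, NRG1, CDKN1A and GDF15 all D14 points lie above the D0 points, for VIM, RRM2 and TYMS below them, and for MKI67 they overlap with letter B lowest at D14.

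Antigen presentation and secreted factors also rose in part. Of 19 antigen presentation genes 9 rose and 1 fell (median 0.73), and 6 rose without D14 B and 3 with letter B left out on all days. HLA-DRB1, a class II molecule, had 662, 819.7 and 678 at D14 and 72.4, 89.9 and 66.2 at D0 (log2 difference 3.23 ± 0.21, adjusted p = 2.5e-08). CD74, the class II invariant chain, had 99.2, 147 and 147 at D14 and 22.6, 42.9 and 24 at D0 (log2 difference 2.13 ± 0.34, adjusted p = 0.00051). HLA-B, a class I heavy chain, had 10022, 12756 and 9751 at D14 and 6522, 5817 and 6086 at D0 (log2 difference 0.81 ± 0.18, adjusted p = 0.0073), and it lost its call with letter B left out on all days. HLA genes are close copies of each other, so reads may be shared. The 1 member that fell was CALR, an endoplasmic reticulum chaperone (-0.59), a call lost without any 1 library other than D14 B. Of 24 genes of NF-kB response and secretion 12 rose and 1 fell (median 0.85), and 11 rose without D14 B. There were 8 rises without D14 A, D14 C or D0 C, and 7 rises and no fall with letter B left out on all days. CXCL1, a neutrophil chemokine, had 213, 162 and 143 at D14 and 21.5, 17.8 and 17.3 at D0 (log2 difference 3.12 ± 0.41, adjusted p = 7.7e-05). IGFBP3, which binds insulin-like growth factors, had 234, 225 and 280.2 at D14 and 29.4, 37.6 and 25.9 at D0 (log2 difference 2.96 ± 0.37, adjusted p = 4.8e-05). Both were separated by day in every library. CXCL8, another neutrophil chemokine, had 263, 67.9 and 303 at D14 and 37.3, 52.3 and 41.3 at D0 (log2 difference 2.00 ± 0.59, adjusted p = 0.034). D14 B lay far below the other D14 libraries and just above the highest D0 value, and without it the difference was 2.68 (adjusted p = 0.0062). The CXCL8 call was lost without D14 A, without D14 C and without any 1 of the D0 libraries. NFKB1 itself, chosen here after its value was seen as the only member that fell, had a difference of -1.08.

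p53 targets were still higher at D14 for part of the list. Of 30 tested, 11 rose, none fell and 19 did not pass, with a median of 0.51 (11 rises without D14 B as well, and 9 without D0 B or D0 C). CDKN1A (p21), an inhibitor of cyclin-dependent kinases encoded on chromosome 6 (36676460 to 36687339), had 21939.6, 34055 and 25949 at D14 and 7009, 6583 and 7739 at D0, a 3.79-fold rise (log2 difference 1.92 ± 0.23, adjusted p = 2.7e-05). PLK2, a stress-responsive kinase, had 14813, 12092 and 15929 at D14 and 2774, 3381 and 3118 at D0 (log2 difference 2.20 ± 0.22, adjusted p = 3.9e-06). The days did not overlap for either gene. TP53INP1, a p53 cofactor, had 1269, 966 and 1359 at D14 and 244, 267 and 269.6 at D0 (log2 difference 2.18 ± 0.23, adjusted p = 6.4e-06). TP53INP1 shares 23440 bases with NDUFAF6 on the opposite strand. BTG2, an antiproliferative factor, had 2656, 4180.2 and 2893 at D14 and 866, 911 and 940.3 at D0 (log2 difference 1.81 ± 0.32, adjusted p = 0.0011). GDF15, a secreted stress cytokine, had 12166, 14884 and 12576 at D14 and 5832, 4983 and 4748 at D0 (log2 difference 1.35 ± 0.18, adjusted p = 0.0001). For these 3 genes, too, the lowest D14 value exceeded the highest D0 value. MDM2, the ubiquitin ligase that degrades p53, had 5445, 2472 and 6292 at D14 and 2301, 2927 and 3107 at D0, so D14 B lay inside the D0 range while A and C lay above it. MDM2 did not pass with all libraries (log2 difference 0.67 ± 0.31, adjusted p = 0.17) and passed without D14 B (1.09, adjusted p = 0.016).

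DNA replication genes were lower at D14. Of 41 tested, 24 fell, none rose and 17 did not pass, with a median of -0.79 (-0.78, -0.85 and -0.81 in letters A, B and C). Without D14 B 21 fell, with letter B left out on all days 11, and with scaling to library totals 9. FEN1, the flap endonuclease of lagging strand synthesis, had 3531, 3350.4 and 3419.7 at D14 and 9148, 9712 and 8972 at D0 (log2 difference -1.43 ± 0.16, adjusted p = 1.7e-05). MCM5, a subunit of the replicative helicase, had 4370.3, 7402 and 4516 at D14 and 14174, 12788 and 15263 at D0 (log2 difference -1.41 ± 0.21, adjusted p = 0.00028). RFC5, of the clamp loader, had 2536, 2965 and 2504 at D14 and 5837, 6019.9 and 6218 at D0 (log2 difference -1.18 ± 0.17, adjusted p = 0.00017). In all 3 the D14 libraries were lower than every D0 library, and FEN1 overlaps FADS2 on its own strand. MCM2, another helicase subunit, had 5187, 9027 and 5327 at D14 and 9643, 9617 and 13384 at D0. D14 B was near the D0 level, and MCM2 did not pass (log2 difference -0.77 ± 0.28, adjusted p = 0.084) but passed without D14 B (-1.03, adjusted p = 0.03).

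Mitosis genes were lower as well, and 17 of 42 fell, none rose and 25 did not pass, with a median of -0.75. The letters were less alike, with medians of -0.53, -1.03 and -0.55. 14 fell without D14 B, 11 without D0 B, 10 without D0 C and 9 with scaling to library totals. CDC20, an activator of the anaphase-promoting complex, had 7589, 11722 and 7897 at D14 and 24456, 22495 and 26828 at D0 (log2 difference -1.46 ± 0.19, adjusted p = 7e-05). PLK1, a mitotic kinase, had 5414, 8212 and 5795 at D14 and 14139, 14054 and 17074 at D0 (log2 difference -1.24 ± 0.20, adjusted p = 0.00061). CCNB1, cyclin B1, had 4428, 4864 and 4661 at D14 and 9196, 9974 and 9587 at D0 (log2 difference -1.04 ± 0.15, adjusted p = 0.00014). All 3 were separated by day, and for CDC20 and PLK1 letter B was the highest D14 library. LMNB1, a lamin that falls in senescent cells, had 3296, 2627 and 3209 at D14 and 6586, 7026 and 6772 at D0 (log2 difference -1.16 ± 0.23, adjusted p = 0.0027), a call lost with scaling to library totals. MKI67, which encodes the proliferation marker Ki-67, had 7020.2, 3915 and 7662 at D14 and 6238, 6086 and 4584 at D0 and did not pass (log2 difference 0.09 ± 0.46, adjusted p = 0.93). D14 A and C were above the D0 libraries and D14 B below them.

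Many mitotic genes carry the hexamer TTTGAA, the cell cycle homology region through which the DREAM complex and MuvB act, just upstream of their start. The windows of 2 mitosis genes that fell are shown in the same form, with the hexamer (searched on both strands, overlaps counted) in capitals.
PLK1, chr16:23678809-23678888, plus strand: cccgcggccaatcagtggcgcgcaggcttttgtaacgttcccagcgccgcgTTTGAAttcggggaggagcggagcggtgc
CDC20, chr1:43358886-43358965, plus strand: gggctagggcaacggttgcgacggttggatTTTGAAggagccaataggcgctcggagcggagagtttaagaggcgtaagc
Among mitosis genes 36 of 42 have a window in the RefSeq table, and 24 of these 36 (66.7%) hold the hexamer, against 4961 of 27305 genes in the table (18.2%). None of the 34 DNA replication genes with a window holds it. Of the 24 mitosis genes that did not pass and have a window 18 hold it. Only 12 of the 17 that fell have a window, so a share among those that fell is void.

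Genes of nucleotide and folate metabolism, which hold the target of the drug, fell in part. Of 27 tested, 11 fell, none rose and 16 did not pass (median -0.58). The count of falls was 11 without D14 B, 7 without D14 A, 7 without D0 C, 5 with letter B left out on all days and 4 with scaling to library totals. TYMS, thymidylate synthase, the enzyme that the active metabolite of the drug binds, had 9733, 10030.2 and 10709 at D14 and 20442, 20087 and 19382 at D0. It was 1.97-fold lower with no overlap (log2 difference -0.98 ± 0.19, adjusted p = 0.0022). TYMS shares 3255 bases with ENOSF1 on the opposite strand, and its call was lost with letter B left out on all days. TK1, thymidine kinase of the salvage route, had 8332, 11507 and 7511 at D14 and 21469, 18913 and 20595 at D0 (log2 difference -1.18 ± 0.19, adjusted p = 0.00051). RRM2, the regulated subunit of ribonucleotide reductase, had 9268, 8779 and 10075 at D14 and 19575, 22209 and 22832 at D0 (log2 difference -1.20 ± 0.16, adjusted p = 0.00011). DTYMK, thymidylate kinase, had 2285, 2486 and 2222 at D14 and 5257, 4507 and 5040.0 at D0 (log2 difference -1.08 ± 0.21, adjusted p = 0.0024). All of these were lower in each D14 library than in any D0 library.

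In the senescence list 7 of 30 genes fell, 2 rose and 21 did not pass (median -0.53), and 1 rose without D14 A, D14 C, D0 A or D0 B. SKP2, the F-box protein that targets p27 for degradation, had 871, 641 and 920.2 at D14 and 2089.8, 2364 and 2722 at D0 (log2 difference -1.57 ± 0.24, adjusted p = 0.00039). HMGB2, a chromatin protein that is lost in senescence, had 15534, 7975 and 13819 at D14 and 32128, 33096 and 24691 at D0 (log2 difference -1.31 ± 0.28, adjusted p = 0.0054), with D14 B lowest. Its call was lost with letter B left out on all days (log2 difference -0.94, adjusted p = 0.061). CDKN2B (p15), an inhibitor of CDK4 and CDK6, rose, with 568, 430.0 and 515 at D14 and 179, 198 and 178 at D0 (log2 difference 1.44 ± 0.22, adjusted p = 0.00039). The days did not overlap in these 3 genes. Of 17 histone genes 6 rose and 3 fell, and the median of -0.12 turned to 0.03 with scaling to library totals. The library kit selects poly(A) RNA, which most replication-dependent histone messages lack. H2BC5, a histone H2B gene, had 1496, 1094 and 1618 at D14 and 249, 189 and 201 at D0, 6.51-fold higher (adjusted p = 2.3e-05). H2AC6, a histone H2A gene, had 1107, 999 and 1413 at D14 and 208, 255 and 144 at D0 (log2 difference 2.55 ± 0.27, adjusted p = 6.9e-06). Every D14 library lay above every D0 library, and histone genes are near-identical copies of which reads may be shared.

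All 20 cytosolic aminoacyl-tRNA synthetases had negative differences (median -0.73), of which 6 fell with no block, 9 without D14 B, 13 with letter as a block and 15 with GC correction. GARS1, which charges glycine tRNA, had 8270.2, 7183 and 7115 at D14 and 15056, 17024 and 15771 at D0 (log2 difference -1.09 ± 0.14, adjusted p = 8.8e-05). WARS1, for tryptophan, had 3760.1, 5103 and 4031 at D14 and 8848, 8835 and 11016 at D0 (log2 difference -1.16 ± 0.18, adjusted p = 0.00035). Neither gene's days overlapped. All 43 nuclear genes of oxidative phosphorylation had negative differences too (median -0.49), and 10 fell, with 10 without D14 B, 19 with letter as a block and 4 or 5 without any 1 of the other libraries. SDHA, of complex II, had 216, 251 and 198 at D14 and 566, 419 and 477 at D0 (log2 difference -1.13 ± 0.23, adjusted p = 0.0032). UQCRC1, of complex III, had 8715, 11538 and 7523 at D14 and 17930.2, 17019.5 and 17608 at D0 (log2 difference -0.94 ± 0.20, adjusted p = 0.0043). In both, all D14 values were below D0. None of the 79 cytosolic ribosomal proteins passed (median -0.08, and 0.07 with scaling to library totals), and 5 of 41 ribosome biogenesis genes fell (9 with letter as a block, 2 without D0 A or D0 B, and none without D14 A, D14 C or D0 C). Of 13 mitochondrially encoded genes 10 had positive differences (median 0.16, with -0.73, 0.37 and 1.01 in letters A, B and C), and MT-ND6 alone fell (-1.36), a call lost without any 1 of the 6 libraries. Mitochondria were pelleted at lysis, so these values cover only mitochondrial RNA left in the cytoplasm.

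The largest falls included mitochondrial proteins encoded in the nucleus. AFG3L2, a subunit of an inner-membrane protease, had 1481, 1354 and 1666 at D14 and 5062, 5566 and 5249 at D0 (log2 difference -1.82 ± 0.16, adjusted p = 7.1e-07). AIFM1, a flavoprotein needed for respiratory chain assembly that also acts in cell death, had 1085, 911 and 1111 at D14 and 3572, 3552 and 3412 at D0 (log2 difference -1.77 ± 0.16, adjusted p = 1.2e-06). IARS2, the mitochondrial isoleucine tRNA synthetase, had 2375, 1585 and 2231 at D14 and 5944, 6794 and 5881 at D0 (log2 difference -1.61 ± 0.20, adjusted p = 4.4e-05). In all 3 the spread within each day was small beside the gap, and AFG3L2 overlaps TUBB6 on the opposite strand. Of the other large falls, PIR, an iron-binding nuclear protein, had 637, 535 and 429.8 at D14 and 2102, 2163 and 1876 at D0 (log2 difference -1.95 ± 0.21). GPAT3, an enzyme of glycerolipid synthesis, had 503, 338 and 387 at D14 and 1334, 1522 and 1583 at D0 (log2 difference -1.87 ± 0.24). NR2F1, an orphan nuclear receptor, had 1638, 1428 and 1467 at D14 and 4685, 4856 and 4297 at D0 (log2 difference -1.61 ± 0.17). The days did not overlap for any of them, with adjusted p of 9.4e-06, 6.6e-05 and 9.9e-06. CORO1A, an actin regulator, and PBK, a mitotic kinase, fell by smaller margins (-1.58 and -1.55).

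Stress pathways moved in parts. Among 25 ATF4 targets 4 rose and 7 fell (median -0.29). Metabolic enzymes were among those that fell. PCK2, which makes phosphoenolpyruvate in mitochondria, had 943, 1421 and 514 at D14 and 3006, 2989 and 3509.7 at D0 (log2 difference -1.84 ± 0.32, adjusted p = 0.0011). PSAT1, of serine synthesis, had 5957, 4428 and 4253 at D14 and 11636, 14350.3 and 14555 at D0 (log2 difference -1.48 ± 0.17, adjusted p = 1.8e-05). ATF3, a stress-induced transcription factor, rose and had 5561, 7001 and 6103 at D14 and 1425, 1303 and 1124 at D0 (log2 difference 2.28 ± 0.18, adjusted p = 2.7e-07). DDIT3 (CHOP), a transcription factor of stress-induced cell death, had 664, 708 and 696 at D14 and 186, 212 and 132 at D0 (log2 difference 1.98 ± 0.29, adjusted p = 0.00025). None of the 4 had overlapping days, and PCK2 overlaps NRL on the opposite strand. Among 28 NRF2 and metal response genes 9 fell and 2 rose (median -0.33), with 5 falls when letter B was left out on all days and 1 rise without D14 A, D0 A or D0 B. GCLM, a subunit of the enzyme that starts glutathione synthesis, had 738, 412 and 748 at D14 and 1696, 2042 and 1956 at D0 (log2 difference -1.63 ± 0.27, adjusted p = 0.00061). NQO1, a quinone reductase, had 12960.0, 14358 and 12297 at D14 and 29987, 30085 and 28160.1 at D0 (log2 difference -1.16 ± 0.17, adjusted p = 0.00022). AKR1C3, a reductase of the same list, went the other way, with 130.0, 117 and 77.6 at D14 and 28.3, 18.8 and 21.1 at D0 (log2 difference 2.19 ± 0.35, adjusted p = 0.00051), and it has close copies. Unfolded protein response genes mostly did not pass, with 2 of 22 falling, 7 with letter as a block and 1 without any 1 library other than D14 B. Of all genes tested 5.05% fell.

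Immediate early genes and growth signalling genes rose in part. Of 30 immediate early genes 13 rose and none fell (median 0.87), with 9 rises without D14 B, 8 without D0 B, 8 without D0 C and 6 with letter B left out on all days. Since every culture was given emetine before harvest, a blocker that by itself raises such messages in mammalian cells, the levels of both days include that exposure. JUN, an AP-1 subunit, had 7912, 9086 and 6213 at D14 and 1328, 1256 and 1264 at D0 (log2 difference 2.57 ± 0.29, adjusted p = 1.5e-05). CCN1, a matricellular protein, had 12482, 13639 and 11621 at D14 and 4163, 3652 and 2999 at D0 (log2 difference 1.81 ± 0.20, adjusted p = 1.1e-05). CCN2, a related protein of the YAP list, had 875, 1194 and 879.5 at D14 and 111, 87.8 and 145 at D0 (log2 difference 3.10 ± 0.52, adjusted p = 0.00078). Every D14 library lay above every D0 library for these 3 genes. CCN1 is on the list of YAP targets too, of which 5 of 22 rose and none fell (median 0.46). Of 32 genes of ERBB and growth factor signalling 7 rose and none fell (median 0.28). FGFBP1, which releases fibroblast growth factors from the matrix, had 1497, 1481 and 1484 at D14 and 182, 222 and 207 at D0 (log2 difference 2.87 ± 0.21, adjusted p = 7.9e-08), with nearly equal D14 values. In the Notch list 3 of 19 rose. There were 6 rises with letter as a block, and 2 without any 1 of the 6 libraries or with scaling to library totals. Of the 3 risers HES1, a repressor induced by Notch, had 2384, 2363 and 2095 at D14 and 1189, 1176 and 940.3 at D0 (log2 difference 1.05 ± 0.19, adjusted p = 0.0016). In the Wnt list 5 of 19 rose, with 2 without D0 A and 3 without D14 C. Its DKK1, a secreted Wnt antagonist, had 11489.7, 7765 and 10606 at D14 and 4507, 4645 and 4435 at D0 (log2 difference 1.12 ± 0.17, adjusted p = 0.00041). MYC had 23871, 30438 and 23746 at D14 and 17516, 17316 and 19506 at D0 and did not pass (log2 difference 0.51 ± 0.33, adjusted p = 0.34), although the days did not overlap. LGR5, an intestinal stem cell marker, and ABCB1, a drug efflux pump, were not among the listed genes, and none of the 13 drug efflux genes tested passed.

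In the glycolysis and hypoxia list 5 rose and 5 fell of 31 (median -0.20). The risers were NDRG1, ALDOC, SLC2A3, SLC2A1 and ADM, hypoxia-responsive genes, with log2 differences between 0.85 (ADM) and 1.73 (NDRG1). The SLC2A1 call was lost without D14 B, D0 A or D0 B. The fallers were the glycolytic enzymes LDHA, PGAM1, ENO1, TPI1 and GAPDH, the last with the smallest change (-0.79, adjusted p = 0.048). Of these glycolysis and hypoxia genes 2 fell without D14 A or without D14 C and 3 without D0 A or without D0 C. ADM and the 5 fallers lie outside the rule for named genes and were chosen after their values were seen. Of 34 lysosome and autophagy genes 7 rose and 1 fell (median 0.18), with 3 rises when letter B was left out on all days and no fall without any 1 library other than D14 B. The risers included PSAP, the saposin precursor (1.17, adjusted p = 0.086 with letter B left out), and LIPA, lysosomal acid lipase (0.97), whose span contains the interferon-stimulated IFIT genes on the opposite strand. In DNA repair 5 of 38 fell and 1 rose (median -0.56, with -0.15, -1.19 and -0.07 in letters A, B and C). The falls numbered 9 with letter as a block and 3 without D14 A, D14 C, D0 A or D0 C, and the rise was lost without D14 A, D14 C or D0 A. Of 30 apoptosis genes 4 rose (2 without D0 B) and 1 fell (none without D14 B or any D0 library), and CASP10, an initiator caspase, had 234, 322 and 202 at D14 and 47.5, 68 and 39.3 at D0 (log2 difference 2.28 ± 0.30, adjusted p = 7e-05). In the list of initiation and mTOR genes 3 of 32 rose, against 7.75% of all genes tested, and none fell (median -0.22). There were 5 rises and 3 falls with letter as a block, 4 and 2 without D14 B, and 5 and 7 with GC correction. Without any 1 library other than D14 B 2 rose and none fell. The risers were led by EIF4A2, an RNA helicase of initiation, with 21272, 13321 and 20262 at D14 and 7904, 8482 and 6175 at D0 (log2 difference 1.26 ± 0.19, adjusted p = 0.00034). Of 12 RNAs picked as noncoding and often nuclear 4 rose: PURPL, GAS5, NORAD and PVT1 (2.56, 1.45, 1.18 and 0.87), and the GAS5 call was lost without D0 C and that of PVT1 without any 1 of the 6 libraries. 1 of 25 cholesterol synthesis genes rose, against 7.75% of all genes tested. It was MSMO1 (1.09), a call lost without D14 A, D14 C, D0 A or D0 C.

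**Figure D3:**
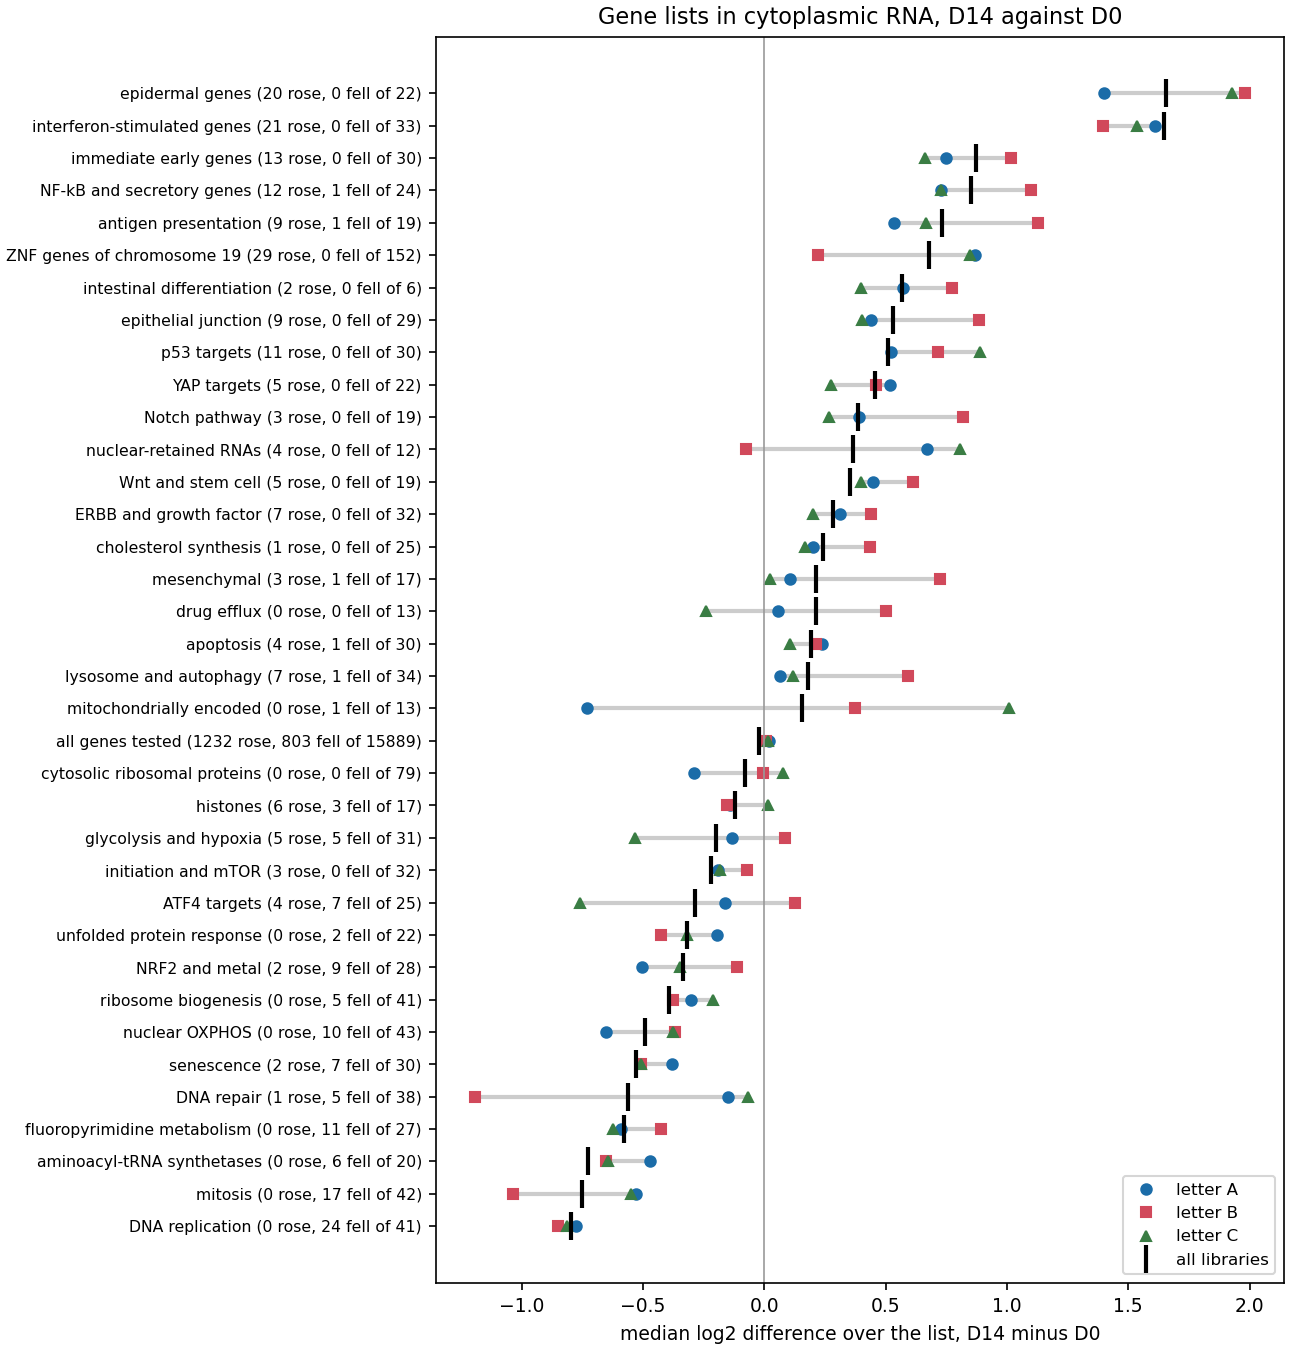
Median log2 difference D14 minus D0 over each gene list (x axis), for all libraries (short vertical line) and within letters A, B and C (points), with the number of genes that rose and fell beside each name. The epidermal and interferon lists are highest at medians of 1.66 and 1.65, and DNA replication and mitosis lowest at -0.79 and -0.75. Letter B lies apart for DNA repair, at -1.19.

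The D14 libraries were also set against earlier days of treatment. Against D2, the end of the drug exposure, 2841 of 15889 genes (17.9%) differed, 1343 higher (8.45%) and 1498 lower (9.43%). Scaling to library totals gave 1591 higher and 744 lower there, with a median of 0.23 over all genes. Against D7, 5656 (35.6%) differed, 2622 higher (16.5%) and 3034 lower (19.1%), and scaling to library totals turned the balance, with 4576 higher and 1426 lower and a median of 0.48. Without D7 A the count against D7 was 3024. Against D2 it was 1585 without D14 A, 1547 without D14 C, 1674 without D2 A and 1739 without D2 B. These comparisons share the D14 libraries with the one against D0, so the values are given side by side and no agreement is read from them.

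CDKN1A had 7111 ± 584 at D0, 162389 ± 21683 at D2, 66152 ± 18014 at D7, 27315 ± 6172 at D14 and 18115 ± 3814 at D16 (mean ± SD, n = 3 each). Of these days its mean was highest at D2, and CDKN1A was lower at D14 than at D2 with a log2 difference of -2.59 ± 0.23 (adjusted p = 1.4e-06). Of the 30 p53 targets 23 were lower at D14 than at D2 and 1 higher, and 15 were lower than at D7 and 1 higher (7 and 2 with scaling to library totals). Of the interferon-stimulated genes 15 of 33 were higher at D14 than at D2 and 4 lower, and 15 were higher and 4 lower than at D7. The 4 lower ones numbered 2 on each day with scaling to library totals, and 2 against D7 without D14 A, D14 C, D7 A or D7 C. IFI27 had 21.6 ± 6.36 at D0, 134 ± 64.6 at D2, 202 ± 90.2 at D7, 783 ± 231 at D14 and 1960.1 ± 548 at D16. Its mean climbed from each of these days to the next, though the step from D2 to D7 was not tested. IFI27 at D14 stood above D7 by 2.02 ± 0.42 (adjusted p = 0.0028). ISG15 instead was lower at D14 than at D2 with a log2 difference of -2.95 ± 0.34 (adjusted p = 1.9e-05). Of 22 epidermal genes 12 were lower at D14 than at D7 and 4 higher, a balance that scaling to library totals turned to 4 lower and 5 higher. KRTAP3-1 had 18.4 ± 12.9 at D0, 692 ± 213 at D2, 6540.1 ± 1097 at D7, 2843 ± 842 at D14 and 978 ± 443 at D16.

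Of 42 mitosis genes 19 were higher at D14 than at D2 and none lower (12 without D14 C or D2 B, 11 without D2 A), while 17 were lower at D14 than at D0. CCNB1 had 9586 ± 389 at D0, 2192 ± 105 at D2, 4278 ± 519 at D7, 4651 ± 218 at D14 and 4482 ± 454 at D16, and D14 was higher than D2 by 1.08 ± 0.15 (adjusted p = 8.4e-05). Of 41 DNA replication genes 11 were higher than at D2 (7 without D2 A) and 1 lower (2 without D14 B). RRM2, of the nucleotide list, had 9374 ± 655 at D14 and 18397 ± 221 at D2 (D14 minus D2 -0.97 ± 0.16, adjusted p = 0.00063, and 0.063 with scaling to library totals). Against D7, 67 of 79 cytosolic ribosomal proteins and 33 of 43 nuclear oxidative phosphorylation genes were lower at D14 than at D7, none of either was higher, and 17 of 25 cholesterol synthesis genes were higher with none lower. Scaling to library totals gave 49 lower ribosomal proteins, 27 lower and 1 higher oxidative phosphorylation genes and 21 higher cholesterol synthesis genes. D7 A had the lowest quality weight of the cytoplasmic libraries, 0.14, followed by D14 B at 0.17, where an average library has 1. Without D7 A 12 ribosomal proteins were lower than at D7, without D14 A 44 and without D14 C 40.

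**Figure D4:**
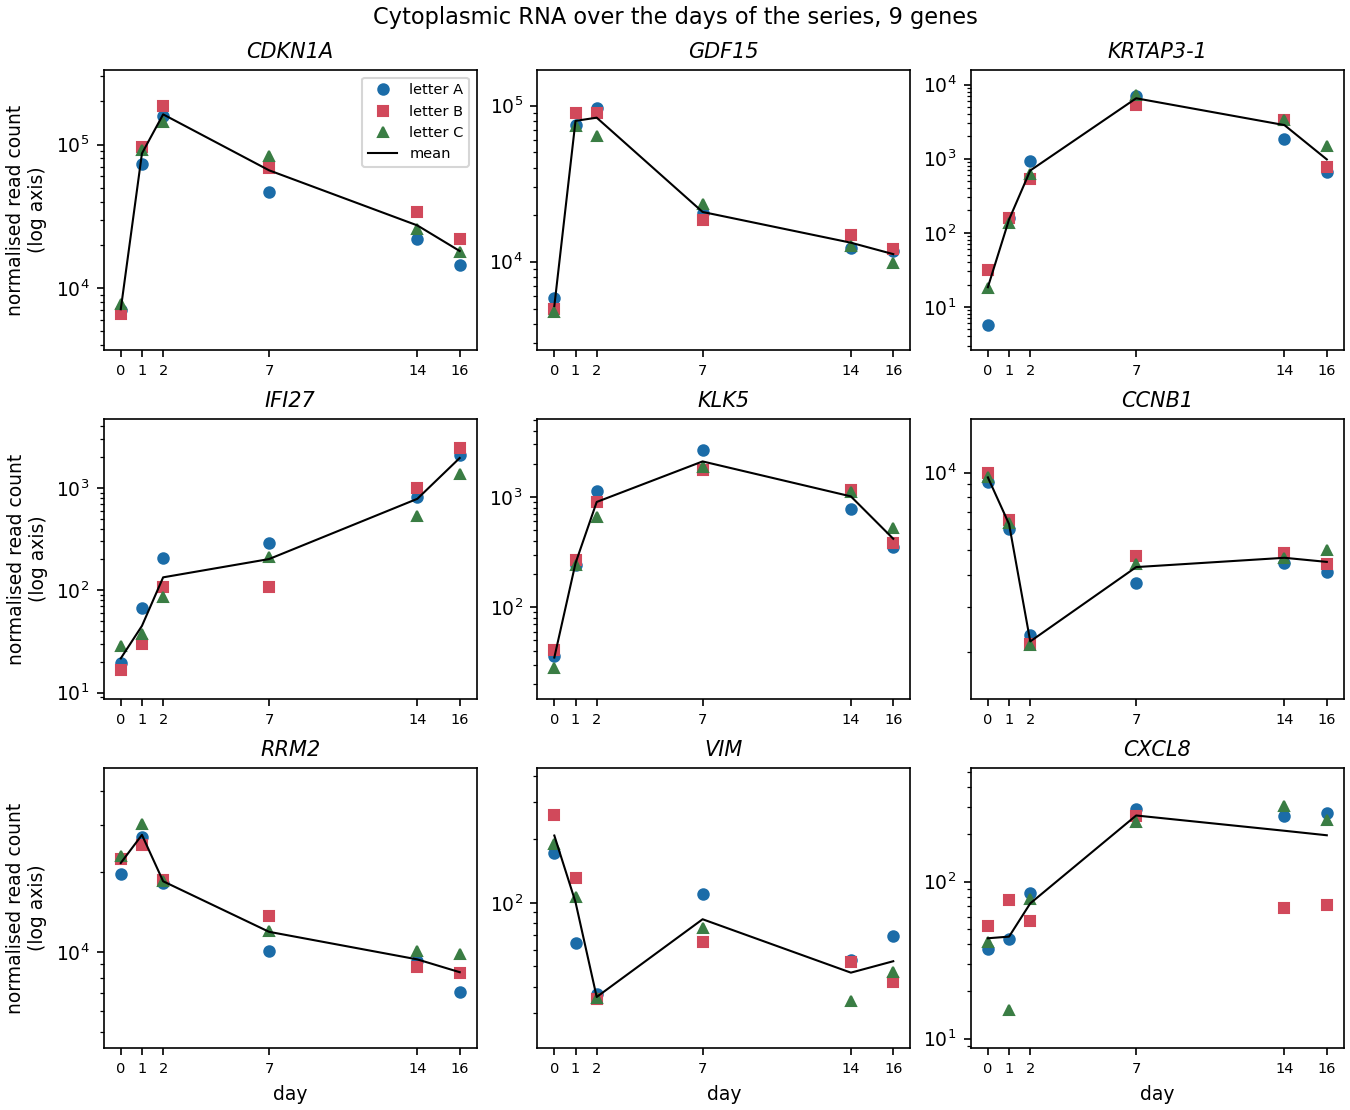
Normalised read counts (log axis) of 9 genes in cytoplasmic RNA by day (x axis), with points for letters A, B and C and a line through the means. CDKN1A and GDF15 peak by D2 and come down towards D14, IFI27 climbs through D16, CCNB1 is lowest at D2, and CXCL8 of letter B lies below the other letters at D14 and D16.

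The heavy polysome pool of the same days gave a second reading from other libraries. There 11413 of 15852 genes (72.0%) differed between D14 and D0, 5457 higher (34.4%) and 5956 lower (37.6%). Scaling to library totals turned that balance too, with 7372 higher and 3961 lower and a median of 0.30. Spread within a day was smaller than in cytoplasm (SD from the day's mean 0.164 to 0.254 on the log2 scale, against 0.238 to 0.663). Of the 2035 genes called in cytoplasm 1704 were called in the same direction in the pool, 65 in the opposite one and 266 not. By list, 26 interferon-stimulated genes were higher and 3 lower in the pool (28 and 1 with scaling to library totals), 21 of 22 epidermal genes were higher, 39 of 41 DNA replication genes and 36 of 42 mitosis genes were lower, and all 20 aminoacyl-tRNA synthetases were lower. Mitochondrially encoded transcripts took 0.181% to 0.312% of pool reads at D14 and 1.41% to 2.13% at D0. With mitochondria pelleted at lysis, such reads do not measure the RNA inside them as a whole. All 13 mitochondrially encoded genes were lower in the pool (median -3.38), against 1 in cytoplasm, and 70 of 79 ribosomal proteins were higher (median 0.79, and 77 with scaling to library totals), against none in cytoplasm. A test of the difference itself called 4490 of 15891 genes (28.3%), 2659 with a positive and 1831 with a negative difference (673 and 2478 with scaling to library totals), and 9 of the 40 genes chosen for large changes or as a fixed set.

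**Figure D5:**
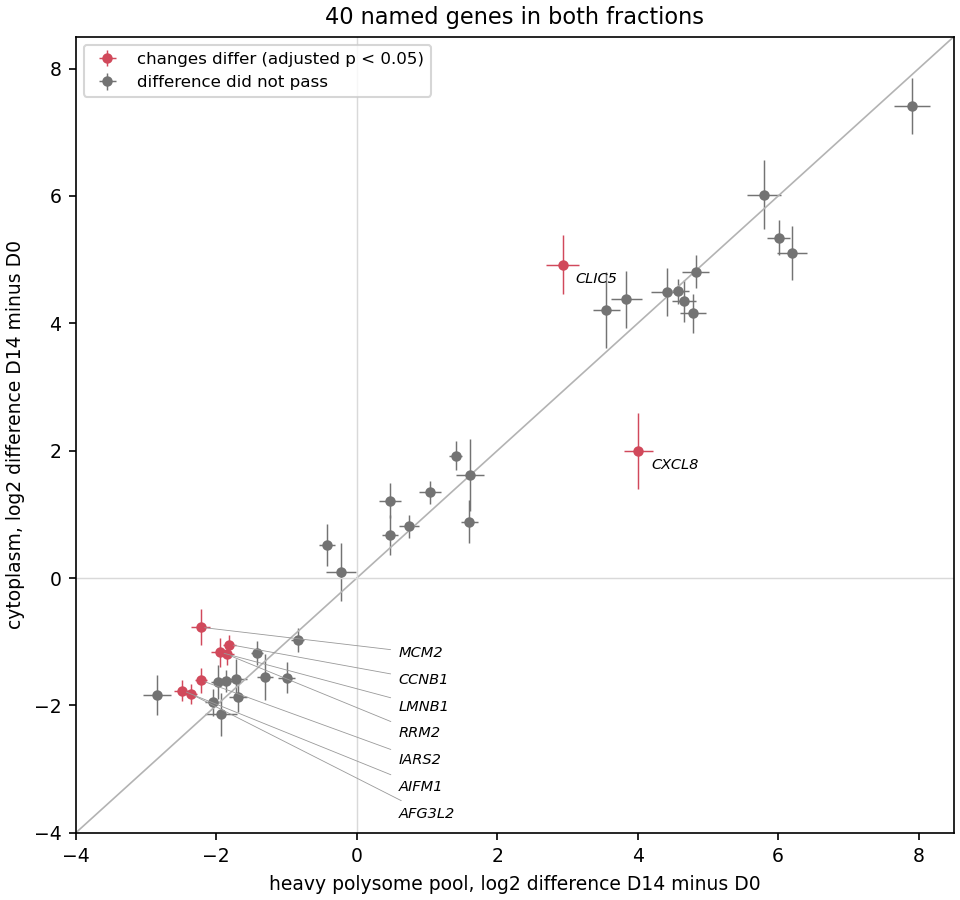
Log2 difference D14 minus D0 in cytoplasm (y axis) against that in the heavy polysome pool (x axis) for 40 named genes, with SE bars and the line of equality. The 9 genes whose changes differ by test are in red and named, with CXCL8 and CLIC5 farthest from the line.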

How the data were processed

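Cytoplasmic and heavy polysome pool RNA of HCT116 cells was sequenced in 36 libraries (6 days, 2 fractions, letters A, B and C). Per the submitters' processing notes, the tools were FastQC 0.11.9, cutadapt 3.2, STAR 2.7.9a, featureCounts of Subread 2.0.1 and DESeq2 1.30.1, with build GRCh38. The authors deposited 1 signal value per gene and library, and the values are whole reads divided by 1 factor per library. Division by the smallest spacing of each library's values gave whole reads for 100% of values within 0.01, and total recovered reads are the depth. No molecular identifiers are described. None of the 15891 listed genes is at 0 in any library. Of 54 value columns 18 match no sample and were not used.

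The values were tested with limma 3.58.1 (R 4.3.3, trended variance) on log2(value + 1), over all 18 libraries of a fraction, for genes with a value of at least 10 in 3 libraries. Adjusted p under 0.05 was called. The difference between fractions was a contrast over 12 group means of all 36 libraries. edgeR 4.0.16 and DESeq2 1.42.0 were run on the recovered reads as alternatives, and edgeR called 1335 higher and 603 lower genes. GC correction subtracted a lowess curve (span 0.3) of each library's deviation on GC content, and other alternatives were the letter as a block, library quality weights, other scalings, pseudocounts and filters, and leaving out single libraries. The fits were tested on simulated data drawn without a GC trend or an effect of the letter, so that test says nothing about either. Gene names came from the files and reference tables (15856 IDs with a symbol), and GC content, position and overlaps from GENCODE 29 (15782 genes, 99.31%, with GC content). Further named genes overlap annotated genes, and not every overlap is given.

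The letters are batches per the labels and replicates per the sample descriptions. Neither says that they pair the libraries, and the main fit used no pairing. Deviations of same-letter libraries of different days correlated in cytoplasm with a mean r of 0.19 over 45 pairs, and 27 of these were over 0.1. Different-letter libraries had a mean r of -0.09 over 90 pairs, and 27 of these were over 0.1. For D14 with D0 the same-letter values were -0.01, -0.35 and -0.16 in letters A, B and C.

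Genes named in the text are those called with 1 sign in all letters that had the 12 highest or 12 lowest log2 differences (coding genes averaging 100 or more at D14 or D0), the top 4 at most from every gene list, and some preset genes given whatever their p. The members, lists and rules were chosen with earlier results of these data known. No list was tested. The median of all genes and the shares called, given with the counts over all genes, are the background for the list counts. A few results are not reported here.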

Additional observations from a re-analysis of the deposited data

Results flagged for a closer look

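In 9 of the 40 genes chosen for their large changes or as a fixed set, the change from D0 to D14 in cytoplasm differed from that in the heavy pool by a test of the difference (limma over 36 libraries, adjusted p). The value is the cytoplasmic log2 difference minus that of the pool, with its SE, and all genes of the test had a background of 28.3% called. CLIC5 rose more in cytoplasm (4.92 ± 0.47) than in the pool (2.93 ± 0.24), a difference of 1.99 ± 0.51 (adjusted p = 0.0054). CXCL8 rose less in cytoplasm (2.00 ± 0.59) than in the pool (4.01 ± 0.21), a difference of -2.01 ± 0.65 (adjusted p = 0.022), and its cytoplasmic difference was 2.68 without D14 B. Its heavy pool values were 216, 281 and 269 at D14 and 12.2, 22.6 and 11.7 at D0. The other 7 genes had lower means at D14 in both fractions, MCM2 in cytoplasm without passing, and the difference was smaller in cytoplasm than in the pool. MCM2 had a difference of 1.45 ± 0.33 (adjusted p = 0.0026), LMNB1 of 0.78 ± 0.27 (0.028), CCNB1 of 0.77 ± 0.16 (0.0014) and RRM2 of 0.65 ± 0.19 (0.011). AIFM1 had a difference of 0.72 ± 0.20 (0.0083), IARS2 of 0.61 ± 0.21 (0.032) and AFG3L2 of 0.54 ± 0.16 (0.016). With scaling to library totals AFG3L2, AIFM1, CCNB1, IARS2, LMNB1 and RRM2 no longer passed, and with letter B left out on all days AFG3L2, AIFM1, CLIC5, CXCL8, LMNB1, MCM2 and RRM2 did not. CXCL8 did not pass without D0 B or D14 B in cytoplasm, or without D0 A or D0 C in the pool. IARS2 and LMNB1 did not pass without D0 A, D14 A or D14 C in cytoplasm, without D0 C or D14 B in the pool, and, for IARS2 alone, without D0 C in cytoplasm or D0 A or D14 C in the pool. All 9 kept their direction under the alternatives run.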

How the results depend on the processing

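The count of genes called at D14 against D0 was 2035. It moved to 3733 with GC correction, 6418 with GC correction of the D14 and D0 libraries alone, 998 with letter B left out on all days, 4937 with replicate block and GC correction, and 7264 with sample quality weights. The replicate block alone gave 3015. Against D2, 2841 moved to 4356 with GC correction, 5780 with replicate block and GC correction and 9897 with weights. Against D7, 5656 moved to 8884 with replicate block and GC correction and 10537 with weights. The difference between fractions moved from 4490 to 1297 with letter B left out on all days and 8780 with weights. For the heavy pool no setting moved the 11413 by over 1.5 times. The weights came from a fit that warned of incomplete convergence. Leaving out 1 library gave 1104 to 1743 genes against D0, 1547 to 3304 against D2 and 3024 to 6028 against D7. Of 132 called genes named by the rule, 92 kept direction and call under all alternatives. 14 lost their call with scaling to library totals, 31 with letter B left out on all days, 10 without D14 B, 18 to 20 without any 1 of the other 5 libraries and none with the replicate block. MKI67, not called with all libraries, lay between -0.091 (without D14 C) and 0.39 (without D14 B) when 1 library was left out, and was below 0 also without D0 C and without D14 A, and no other named gene reversed. Leaving letter B out on all days, correcting the D14 and D0 libraries alone and leaving out D7 A were chosen after seeing the data. The cause of these shifts was not tested. The 3 libraries a day and the GC trend of D14 B limit small differences.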

Other observations

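Zinc finger genes named ZNF on chromosome 19, a list chosen after values were seen and given with no test, had a median log2 difference D14 minus D0 of 0.68 over 152 genes, with medians of 0.87, 0.22 and 0.85 in letters A, B and C. The median of all genes was -0.02. Their part in the GC trend of D14 B was not tested.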
